A study of Homo sapiens with 6 samples.

Results

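H/ACA small nucleolar RNAs (genes named SNORA) and small Cajal body RNAs (genes named SCARNA) were described in SK-N-AS, an established human neuroblastoma cell line. They were chosen by their symbols and by measured counts, with at least 10 counts in at least 3 of the 6 libraries, a minimum that takes no account of the groups. Of 239 gene identifiers with such symbols among 60651 in all, 169 passed, 146 of 214 SNORA and 23 of 25 SCARNA. The cells carried a MYCN gene controlled by a tetracycline repressor (pcDNA6TR). They were held as single clones under 500 µg/ml G418 and 5 µg/ml blasticidin. The 3 control libraries (labelled ETOH) were compared with 3 libraries in which tetracycline had induced MYCN (labelled Tet). All were at 120 h by their titles, which the labels also give as 5 days. The promoter is artificial and clones of a single line were used, which limits both groups as models of tumours. After ribosomal RNA had been removed with an enzyme, total RNA was read from both ends, 150 nucleotides each.

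H/ACA RNAs fold into a pair of hairpins joined by the H box (ANANNA) and ended by the letters ACA close to the 3′ end. Each hairpin can hold a pocket that pairs with a target RNA, and the protein dyskerin (DKC1) then turns a chosen uridine into pseudouridine. SNORA guides act on ribosomal RNA in the nucleolus, while SCARNA guides are held in Cajal bodies and act on spliceosomal small nuclear RNAs. Some SCARNA carry box C/D elements, which guide ribose methylation, in place of or next to H/ACA hairpins. Nearly all human H/ACA RNAs are cut from introns of host genes, so that their output is tied to host transcription, splicing and the stability of the finished particle. MYCN encodes a transcription factor known for driving genes of ribosome production, some of which are hosts. The comparison asks which transcripts differ in level once MYCN is induced. Only the Tet libraries had tetracycline, so an effect of the drug and an effect of MYCN cannot be told apart.

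MYCN itself rose in the Tet libraries, though it was already measured in ETOH. It stood at 30.3, 35.5 and 32.4 CPM (counts scaled to a library of 1e+06 counts after TMM normalization) in ETOH and at 211, 221 and 199 CPM in Tet, a log2 fold change of 2.68 ± 0.085 (SE, n = 3 and 3, edgeR adjusted p = 4.15e-05). Total counts ran from 64500589 to 102249336 per library. On principal component 1 of all genes, Tet replicate 3 lay far out at 69.1, against 14.4 and 13.1 for the other Tet libraries and between -40.3 and -25.9 for ETOH. All 7 adrenergic neuroblastoma markers were detected, with summed levels of 903 to 1273 CPM in ETOH and 897 to 1091 CPM in Tet, and the 6 mesenchymal markers summed to 481 to 503 CPM and 549 to 602 CPM. Of the 6 mesenchymal markers, FN1 passed the test, lower in Tet (-0.71 ± 0.13, edgeR adjusted p = 0.033). The other 5 did not pass, and their log2 fold changes were above 0, with a median of 0.25 over all 6. Markers of blood, epithelial and liver cells summed to at most 2.63 CPM in any library, with CD3E at 0 in all 6. In bulk RNA, fewer cells with a transcript and less of it per cell cannot be told apart.

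The members were mostly of the size of a pair of hairpins. The median length was 134 bases (range 81 to 420), and 150 of 169 were shorter than 180 bases. The sequence of all 169 was read from GENCODE release 44 on GRCh38, where each has the same coordinates as in the count files. The letters ACA stood exactly 3 bases from the 3′ end, on the transcribed strand, in 102 of 146 SNORA (69.9%) and in 13 of the 17 SCARNA not assigned to box C/D or mixed types (76.5%). Neither the 6 box C/D and mixed SCARNA (0 of 6) nor most SNORD genes, the box C/D snoRNAs, had it (4 of 216, 1.85%). The box C letters TGATGA were in 5 of those 6 SCARNA, in 154 of 216 SNORD (71.3%), in 4 of the 17 other SCARNA (23.5%) and in 4 of 146 SNORA. Letters matching ANANNA were in 143 of 146 SNORA (97.9%) but also in 171 of 216 SNORD (79.2%).

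Levels per kilobase of RNA spanned a 927-fold range. The most abundant were SNORA73B and SNORA73A, the U17 RNAs, which take part in cleavage of the ribosomal RNA precursor rather than in its pseudouridylation. Both lie in SNHG3 on chromosome 1, SNORA73A at chr1:28507366-28507571 and SNORA73B at chr1:28508559-28508762, plus strand, GRCh38. Next came SCARNA7, a box C/D RNA, and SCARNA10, a mixed RNA, of 330 bases each, and SCARNA21, of 139 bases with an ACA end. The sequences of 4 of the 10 most abundant are shown because they set nucleolar H/ACA RNAs beside a Cajal body RNA with an ACA end and a mixed one. In SNORA73B, SNORA73A and SCARNA21 (chr17:7906122-7906260, plus strand, intron of CHD3), capitals mark the ANANNA match nearest the middle and the terminal ACA. In SCARNA12 (chr12:6967337-6967606, minus strand, PHB2), a mixed RNA, capitals mark every TGATGA and CTGA, the letters of boxes C and D. The TGATGA overlaps the CTGA nearest the 5′ end, and CTGA is in 210 of 216 SNORD (97.2%) and in 72 of 146 SNORA (49.3%).
SNORA73B: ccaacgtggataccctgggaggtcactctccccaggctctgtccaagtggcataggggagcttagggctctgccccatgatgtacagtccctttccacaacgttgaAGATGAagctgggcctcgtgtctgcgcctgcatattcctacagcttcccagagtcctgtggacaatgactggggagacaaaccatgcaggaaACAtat
SNORA73A: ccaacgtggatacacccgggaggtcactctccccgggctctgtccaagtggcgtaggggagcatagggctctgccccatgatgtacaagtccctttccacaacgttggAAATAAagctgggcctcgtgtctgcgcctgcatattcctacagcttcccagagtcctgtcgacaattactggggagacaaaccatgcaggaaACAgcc
SCARNA21: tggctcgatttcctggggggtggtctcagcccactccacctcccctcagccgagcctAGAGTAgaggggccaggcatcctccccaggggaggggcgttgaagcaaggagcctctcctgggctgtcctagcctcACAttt
SCARNA12: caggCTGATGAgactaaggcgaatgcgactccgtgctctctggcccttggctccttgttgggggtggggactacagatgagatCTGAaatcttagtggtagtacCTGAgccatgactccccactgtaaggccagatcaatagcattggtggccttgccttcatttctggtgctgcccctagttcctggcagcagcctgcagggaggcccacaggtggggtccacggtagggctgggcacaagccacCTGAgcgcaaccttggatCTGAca

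The U17 RNAs differed at 14 positions of the alignment, an identity of 93.2%. SNORA73B had a mean level of 581 CPM per kilobase over the 6 libraries and SNORA73A of 549. SCARNA7 followed at 431, SCARNA10 at 275 and SCARNA21 at 243 CPM per kilobase. The other 5 of the first 10 were SNORA74D (83.4), SCARNA12 (71.2), SNORA49 (66.0), SCARNA17 (64.0) and SNORA57 (34.7 CPM per kilobase). The order is not firm throughout. SCARNA7 was above SCARNA10, and SCARNA21 above SNORA74D, with no overlap between any of their libraries, while every other pair of neighbours in the first 10 overlapped. Compared within each library, SNORA74D was above SCARNA12 in all 6 and SCARNA10 above SCARNA21 in 4. The other overlapping neighbours kept their order in 5 of 6. Below them the members fell off without a gap, with a median over all 169 of 7.09 and a lowest level of 0.626 CPM per kilobase. Reads from the intron around a small RNA are counted on it too, so that low levels need not be finished RNA. Length and level were weakly related across members (Spearman rho 0.19, 169 genes measured in the same 6 libraries). The 19 members of at least 180 bases had a median of 13.7 CPM per kilobase, and the 150 shorter ones of 6.34. How recovery in the libraries depends on length was not tested, so the order of levels need not be that of amounts in the cells.

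**Figure D1:**
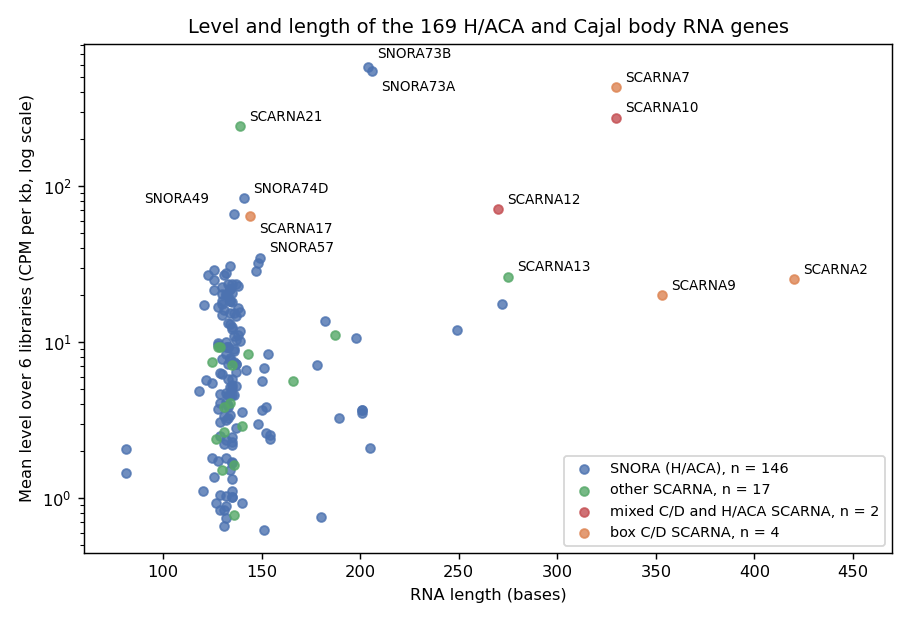
Mean level over the 6 libraries (vertical axis, CPM per kilobase, log scale) against RNA length (horizontal axis, bases) for each of the 169 genes, coloured by type. Most points stand in a column near the median of 134 bases, and the 2 SNORA73 genes, SCARNA7, SCARNA10 and SCARNA21 lie above 200 CPM per kilobase.

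Together the first 10 held between 63.6% and 77.8% of all member CPM in a library. The whole group took 0.0588% to 0.0930% of counted pairs, so that most members rest on few reads, and 88 of 169 had a mean under 1 CPM.

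No H/ACA or Cajal body RNA passed the test between Tet and ETOH. With edgeR's quasi-likelihood test and Benjamini-Hochberg adjustment over 29086 genes, 0 of 169 members were higher, where 298 of all genes (1.02%) were, and 0 were lower, where 692 (2.38%) were. DESeq2 also called 0 in each direction. At an unadjusted p under 0.05 there were 5 members, where 18.7% of all genes reached that level, namely SNORA22, SNORA79B, SNORA80B, SNORA84 and the SNORA75 on ENSG00000212440. The members' median log2 fold change was 0.03, with 88 of 169 above 0 and quartiles at -0.16 and 0.16, beside a median of all tested genes that rounds to 0 and quartiles at -0.19 and 0.16. Separation of the groups was also rare. In 7 members all Tet values lay above all ETOH values, where 11.5% of all genes showed this, and in 6 they lay below, where 14.7% did.

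The precision sets how this is read. The median standard error of a member was 0.23 (log2), against 0.17 over all genes. The 95% interval of the fold change stayed within 1.5-fold either way in 55 of 169 members and within 2-fold in 145, and in the remaining members it reached past 2-fold on at least 1 side. Among the 146 SNORA the median log2 fold change was 0.02, and among the 23 SCARNA it was 0.04. For the 218 SNORD genes it was 0.05, with 5 higher and 0 lower, and for 485 genes named as spliceosomal small nuclear RNAs, pseudogene copies included, -0.02, with 1 higher and 3 lower. Among 2954 tested genes of at most 300 bases outside the members, which overlap those classes, 15 were higher and 27 lower.

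SNORA73B stood at 96.8, 129 and 133 CPM in ETOH and at 104, 74.1 and 174 CPM in Tet, so that the highest and the lowest value were both Tet libraries. SNORA73A followed the same course, with 90.6, 120 and 128 CPM against 101, 61.5 and 178 CPM. Their log2 fold changes were -0.03 ± 0.28 and 0.01 ± 0.34 (SE). SCARNA7, a box C/D RNA in an intron of KPNA4, ran from 119 to 160 CPM in ETOH and stood at 133, 105 and 205 CPM in Tet. SCARNA10, in NCAPD2, was nearly level in ETOH at 100.4, 96.1 and 95.4 CPM and spread in Tet to 90.8, 57.6 and 103 CPM. In 9 of the first 10 members the lowest library was Tet replicate 2, and in 8 the highest was Tet replicate 3.

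**Figure D2:**
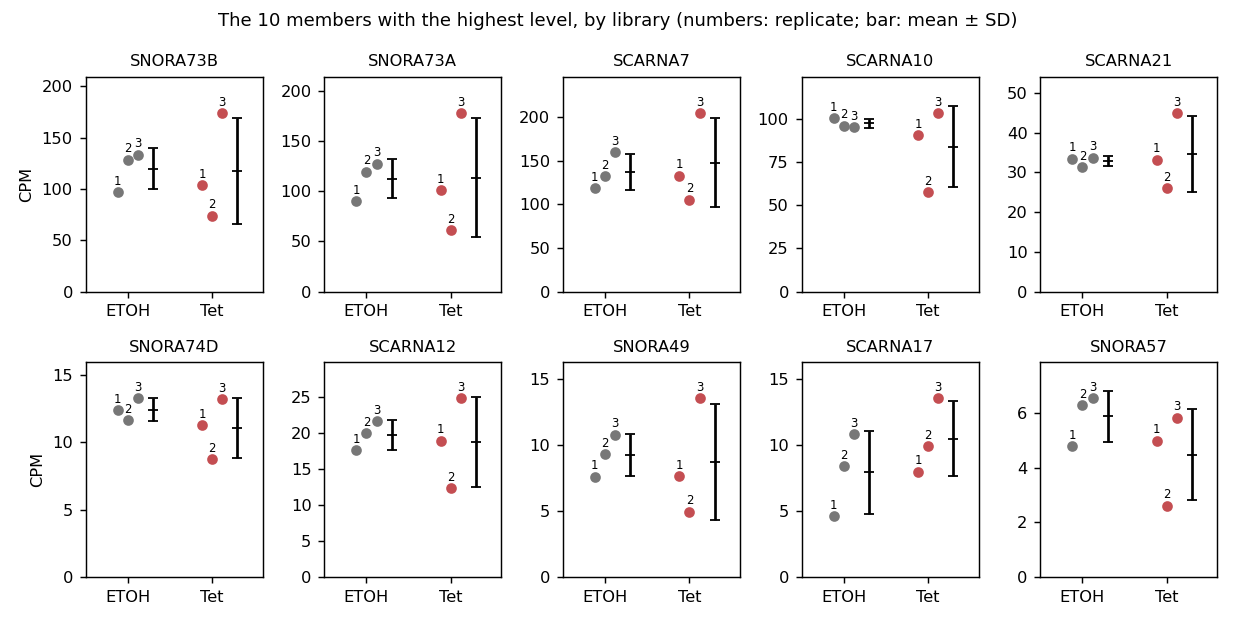
CPM of the 10 most abundant members in each library (vertical axes, from 0), ETOH in grey and Tet in red, with replicate numbers beside the points and the mean ± SD (n = 3) as a bar. In SNORA73B, SNORA73A, SCARNA7, SCARNA10, SCARNA21, SCARNA12 and SNORA49 the Tet values enclose all 3 ETOH values, with replicate 3 at the top and replicate 2 at the bottom.

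Summed over the first 10, the level was 487, 564 and 613 CPM in ETOH and 513, 363 and 777 CPM in Tet, a 2.14-fold gap between Tet replicates 2 and 3. The other 159 members together stayed within 208 to 219 CPM in ETOH and 208 to 224 CPM in Tet. Sums over SNORD genes (347 to 369 CPM in ETOH, 356 to 402 CPM in Tet) and over small nuclear RNA genes (373 to 414 and 342 to 412 CPM) moved less as well, and in both the lowest Tet library was replicate 3. The sum over other tested genes of at most 300 bases, led by few very abundant RNAs, had the Tet order of the first 10. It stood at 38464 to 41060 CPM in ETOH and at 32788, 27242 and 48476 CPM in Tet. The median deviation of these genes from their ETOH mean was instead lowest in Tet replicate 3. It was 0.03, 0.02 and -0.13 (log2) in Tet replicates 1, 2 and 3. What the abundant members share with those genes was not tested. Among the other 159 members, 28 were highest and 52 lowest in Tet replicate 3. Without Tet replicate 3, edgeR called 1 member higher, where 3.68% of all genes were, and 1 lower, where 4.44% were. These were the SNORA75 in NCL, the gene of nucleolin (log2 fold change 0.58 ± 0.12, adjusted p = 0.032 by edgeR), whose bases are also annotated as host exon, and SNORA74A in MATR3 (-0.73 ± 0.14, adjusted p = 0.027 by edgeR). With all libraries they stood at 0.38 ± 0.19 (adjusted p = 0.34 by edgeR) and -0.46 ± 0.21 (adjusted p = 0.30 by edgeR).

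**Figure D3:**
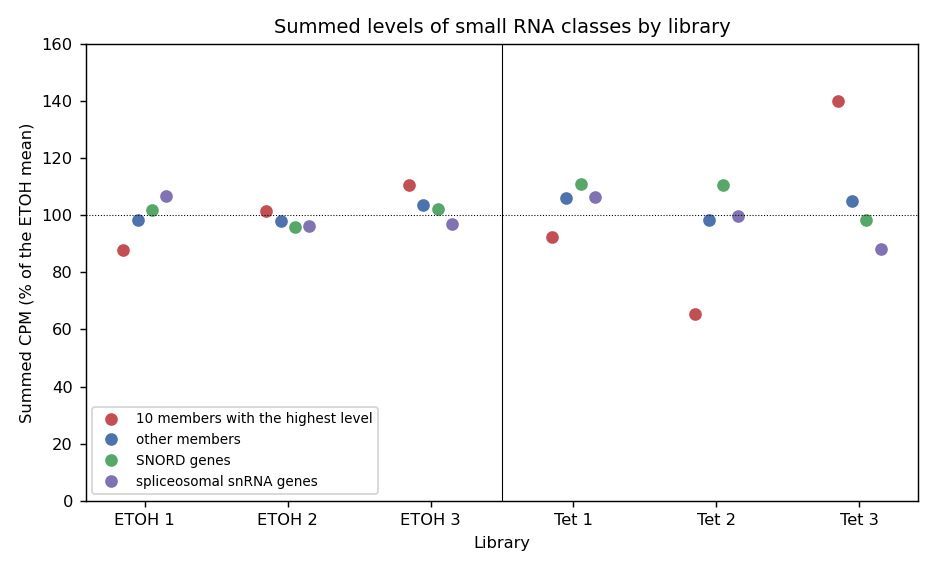
Summed CPM of 4 groups of small RNA genes in each library, as a percentage of the mean of the 3 ETOH libraries (vertical axis), with libraries along the horizontal axis. The 10 most abundant members reach 65.5% and 140% in Tet replicates 2 and 3, while the other members stay between 98.2% and 106%.

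Among the Cajal body RNAs, SCARNA2 and SCARNA17 varied most within the controls. SCARNA2, a box C/D guide with a promoter of its own, stood at 4.52, 10.03 and 16.0 CPM in ETOH and at 6.99, 9.42 and 16.7 CPM in Tet. Its log2 fold change of 0.12 had an interval from -0.94 to 1.17. A non-coding gene at the same place (ENSG00000270066) has equal values in 5 libraries and 9.43 against 9.42 CPM in Tet replicate 2, as pairs that touch both were divided between them. SCARNA17, counted within SNHG22, stood at 4.59, 8.41 and 10.8 CPM in ETOH and at 7.98, 9.90 and 13.6 CPM in Tet, and these groups overlapped as well (0.40 ± 0.31, from 0.12 without ETOH replicate 1 to 0.69 without ETOH replicate 3). SCARNA12, the mixed RNA shown above, had 17.6, 19.9 and 21.7 CPM against 18.9, 12.4 and 24.8 CPM. SCARNA13 in SNHG10 (7.76, 7.61 and 8.12 CPM against 6.67, 4.27 and 8.91) and SCARNA9 in CEP295 (6.47, 6.70 and 7.80 CPM against 6.13, 5.67 and 9.72) had the same order of Tet libraries. SCARNA21, printed above, was at 33.5, 31.3 and 33.7 CPM in ETOH and at 33.2, 26.0 and 45.0 CPM in Tet. SCARNA5 and SCARNA6, Cajal body RNAs of ATG16L1, were not members, with 0.5 and 0 counts over all libraries. Whether they were absent from the cells or missed in the counting cannot be told apart from these files. ATG16L1 itself stood at 15.8 ± 0.19 CPM in ETOH and 16.2 ± 1.22 CPM in Tet (SD, n = 3).

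SNORA24 and the SNORA7 pair are guides for ribosomal RNA, and their groups overlapped. SNORA24, in SNHG8, stood at 3.46, 3.12 and 3.94 CPM in ETOH and at 3.91, 3.54 and 3.33 CPM in Tet. SNORA7A, in RPL32, had 1.66, 1.30 and 1.31 CPM against 1.48, 1.36 and 1.43 CPM, and its interval, from -0.35 to 0.35, lay within 1.5-fold. SNORA7B, in a pseudogene of the same ribosomal protein gene, had 2.35, 2.31 and 2.22 CPM against 2.35, 1.37 and 2.36 CPM. SNORA7A and SNORA7B are 98.6% identical, and how pairs that match both were treated is not certain, since the file headers name unique alignments and the methods an option that counts multiple alignments.

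Among the 81 members averaging 1 CPM or more, 4 were higher in every Tet library than in any ETOH library, and 1 was lower, where 11.5% and 14.7% of all genes were. SNORA22 stood at 2.316, 2.239 and 2.697 CPM in ETOH and at 2.951, 3.230 and 4.299 CPM in Tet, a log2 fold change of 0.53 ± 0.17 (95% interval 0.14 to 0.92, edgeR adjusted p = 0.14, DESeq2 adjusted p = 0.057). It lies in CCT6P1, a non-coding relative of a chaperonin subunit gene, which stood at 0.08 ± 0.10. A copy, SNORA22C in CCT6P3, is 98.5% identical and showed 0.31 ± 0.28, while SNORA22B in the coding gene CCT6A, 92.8% identical, showed -0.07 ± 0.16. SNORA79B, an intronic RNA of CCNB1IP1 with whole counts in every library, had 4.18, 4.42 and 4.18 CPM against 4.70, 5.63 and 5.23 CPM (0.28 ± 0.11, edgeR adjusted p = 0.23). SNORA8, in TAF1D, had 1.53, 1.44 and 1.56 CPM against 1.86, 1.83 and 1.61 CPM. SNORA31, in TPT1, had 1.71, 1.88 and 1.93 CPM against 2.14, 1.99 and 2.03 CPM. The last 2 had log2 fold changes of 0.22 ± 0.13 and 0.16 ± 0.12, whose intervals include 0. None of these 4 passed the test.

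SNORA80B was the member that was lower. It stood at 1.57, 1.47 and 1.19 CPM in ETOH and at 1.04, 0.944 and 0.908 CPM in Tet, on 121 to 164 counts and 67.5 to 88 counts. The log2 fold change was -0.55 ± 0.16 (95% interval -0.92 to -0.18), with an unadjusted p of 0.0095 in the fit across all genes and an edgeR adjusted p of 0.12. Its host, ODC1, the rate-limiting enzyme of polyamine synthesis and a long-known MYC target, moved the other way and passed the test. ODC1 stood at 185.3, 184.9 and 185.1 CPM in ETOH and at 270.1, 269.4 and 280.3 CPM in Tet (0.56 ± 0.056, edgeR adjusted p = 0.0046). The log2 ratio of SNORA80B to ODC1 was -6.89, -6.98 and -7.28 in ETOH and -8.02, -8.16 and -8.27 in Tet. These ratios could not overlap, since SNORA80B was lower and ODC1 higher in every Tet library than in any ETOH library. This pair was singled out after its values were seen, and the difference between member and host was not tested.

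**Figure D4:**
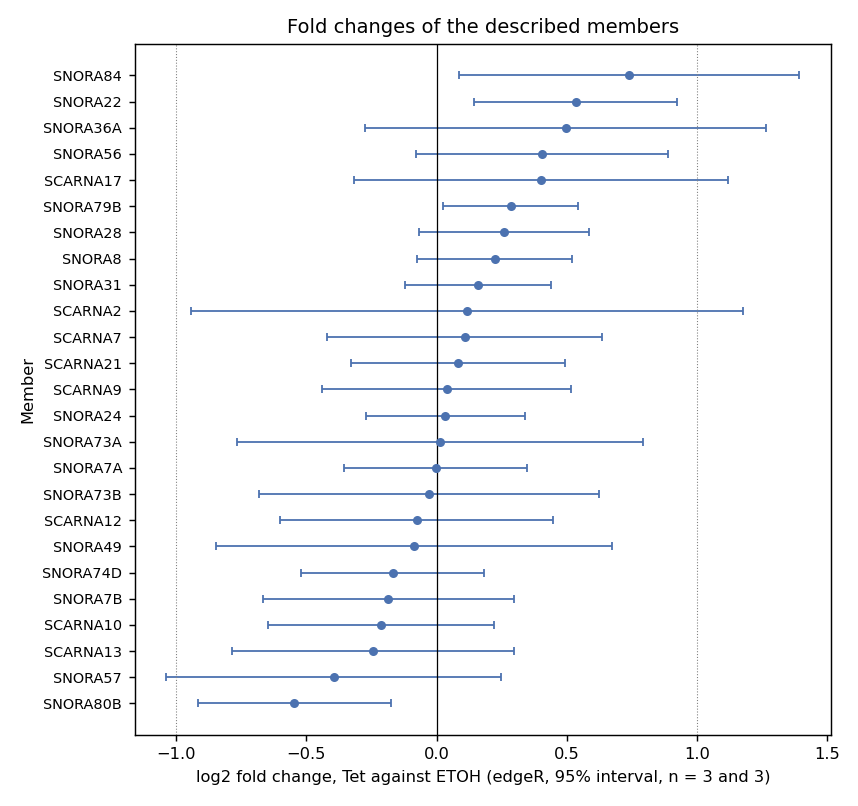
Log2 fold change of Tet against ETOH (horizontal axis) with its 95% interval from edgeR (n = 3 and 3) for 25 members, one per line, with dotted lines at 2-fold. The intervals of SNORA84, SNORA22, SNORA79B and SNORA80B leave out 0, and those of the other members shown include it.

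A host gene on the same strand enclosed 155 of the 169 members, in 115 different genes. Of these members 67 share bases with an annotated host exon, where read pairs were divided between both, and 88 do not. Pairs can be divided outside shared exon bases as well, since 132 of the 169 members had counts that were not whole. Of the 115 hosts, 5 were higher and 1 lower at an adjusted p under 0.05 (edgeR), where 1.02% and 2.38% of all genes were. In 82 of the 115 hosts the log2 fold change was above 0, where only 49.9% of all tested genes were above 0. The median of the hosts was 0.09. The member stood below its host in 99 of 155 pairs, with a median difference of -0.07 (log2), and across the 155 pairs, which share libraries and in part reads, the fold changes of member and host had a Spearman rho of 0.34. That was 0.43 in the 67 pairs with shared exon bases and 0.27 in the 88 without, and the part of shared counting in this was not tested.

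**Figure D5:**
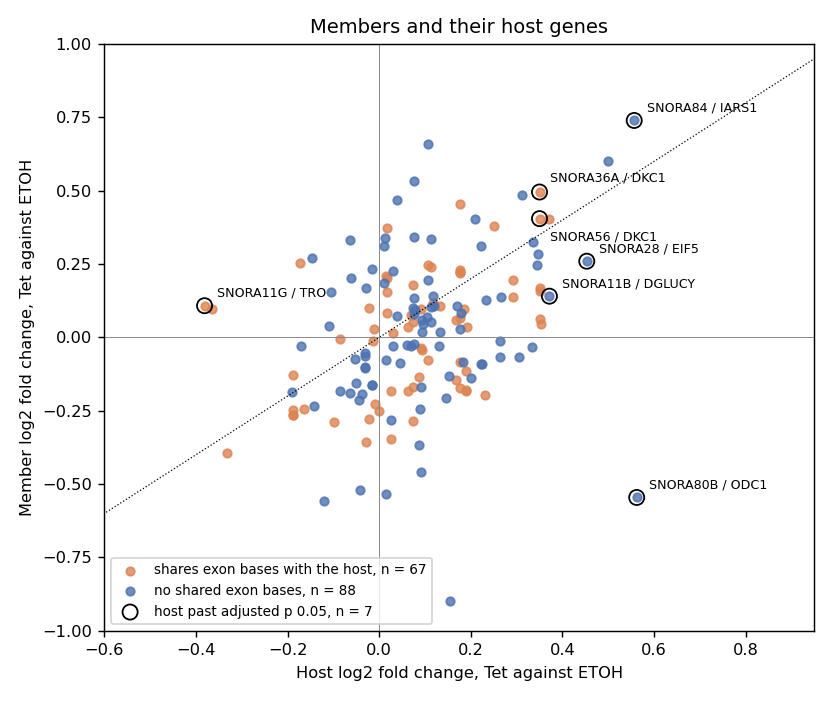
Log2 fold change of each member (vertical axis) against that of its host gene (horizontal axis), Tet against ETOH, for 155 pairs, with orange points for the 67 members that share exon bases with the host and the dotted line at equality. Circles mark the 7 members whose host passed the test, of which SNORA80B in ODC1 lies farthest below the line.

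The 6 hosts past the threshold carry 7 members, and 0 of these passed. EIF5, a translation initiation factor gene, rose by 0.45 ± 0.057 on the log2 scale, and its SNORA28 stood at 0.26 ± 0.14. IARS1, which charges isoleucine tRNA, rose by 0.56 ± 0.12 (edgeR adjusted p = 0.050) and its SNORA84 stood at 0.74 ± 0.28. In SNORA84 that value rests on Tet replicate 3, with 0.549, 0.665 and 0.528 CPM in ETOH and 0.863, 0.665 and 1.39 CPM in Tet, and the groups overlapped. DGLUCY rose by 0.37 ± 0.077 with SNORA11B at 0.14 ± 0.29, and TRO fell, at -0.38 ± 0.066, with SNORA11G at 0.11 ± 0.39 on 7 to 20 counts per library. The fifth riser was DKC1, the gene of dyskerin, which hosts 2 H/ACA RNAs of its own. DKC1 stood at 128.2, 127.1 and 127.8 CPM in ETOH and at 160.5, 162.0 and 165.7 CPM in Tet (0.35 ± 0.056, edgeR adjusted p = 0.021). SNORA56 had 0.310, 0.254 and 0.266 CPM against 0.378, 0.333 and 0.389 CPM (0.40 ± 0.21), with no overlap, and SNORA36A had 0.201, 0.211 and 0.164 CPM against 0.421, 0.222 and 0.201 CPM (0.50 ± 0.33), with overlap. All 129 bases of SNORA56 and 117 of the 132 bases of SNORA36A are also annotated as DKC1 exon.

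The RNAs of ODC1, IARS1 and DKC1 are shown, the hosts with the highest fold changes past the threshold and the dyskerin gene, with the H box match and the last ACA in capitals, as above. SNORA80B is at chr2:10446714-10446849 on the minus strand, SNORA84 at chr9:92292461-92292593 on the minus strand, SNORA36A at chrX:154768528-154768659 and SNORA56 at chrX:154774998-154775126 on the plus strand of GRCh38.
SNORA80B: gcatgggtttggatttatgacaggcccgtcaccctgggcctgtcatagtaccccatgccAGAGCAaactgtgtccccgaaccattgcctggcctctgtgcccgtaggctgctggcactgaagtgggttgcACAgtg
SNORA84: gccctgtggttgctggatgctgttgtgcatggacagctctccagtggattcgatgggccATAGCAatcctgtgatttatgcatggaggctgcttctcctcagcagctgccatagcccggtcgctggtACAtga
SNORA36A: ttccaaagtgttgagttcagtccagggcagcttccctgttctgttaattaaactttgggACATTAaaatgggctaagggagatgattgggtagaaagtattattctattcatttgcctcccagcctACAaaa
SNORA56: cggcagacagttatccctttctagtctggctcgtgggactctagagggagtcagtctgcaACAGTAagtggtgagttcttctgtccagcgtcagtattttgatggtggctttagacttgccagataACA
SNORA80B, SNORA84 and SNORA36A have 3 bases after the ACA, while the annotated SNORA56 ends with it. SNORA80B is 91.9% identical to SNORA80A, and the 5 SNORA80 members ranged from -0.55 to 0.25 in log2 fold change.

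By kind of host, levels spanned a wider range than fold changes. The 18 members in ribosomal protein genes stood at a median level of 15.7 CPM per kilobase and a median fold change of 0.03 (log2), and the 8 in translation factor genes of 20.5 and 0.15. The 22 in SNHG genes, whose known products are mainly their snoRNAs, had 8.82 and -0.07, the 94 in other protein-coding genes 5.28 and 0.06, and the 13 in other non-coding genes 2.41 and -0.14. The 14 with no host had 3.33 and -0.05. In ribosomal protein genes 16 of 18 intervals lay within 1.5-fold, beside 55 of all 169 members. The median standard error was 0.15 for these 18 and 0.23 for all members. In none of the 18 did the groups separate, where 11.5% of all genes had Tet above ETOH in every library and 14.7% had it below.

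Members within the same host were close in level in some genes and far apart in others. In SNHG3, RPSA, RPL27A and RPS2 the highest member stood 1.06-fold, 1.24-fold, 1.26-fold and 1.29-fold above the lowest, and in CCT6P1 13.1-fold. TAF1D carries 6 members, from SNORA25 at 3.42 to SNORA40 at 25.2 CPM per kilobase, with log2 fold changes from -0.17 to 0.46 around a host at 0.18. EIF4A2 carries 4, from SNORA81 at 7.09 to SNORA63 at 27.7 CPM per kilobase, all above 0 in fold change (0.08 to 0.37) beside a host at 0.02. TBRG4 carries 3, with SNORA5B at 3.15, SNORA5A at 18.3 and SNORA5C at 23.4 CPM per kilobase. In MATR3, SNORA74D stood at 83.4 and SNORA74A at 10.6 CPM per kilobase. A member stood above its host per kilobase in 42 of 155 pairs and over 4-fold above it in 10, led by SCARNA7 at 38.9 times KPNA4. SNORA73B and SNORA73A stood at 8.44 and 7.99 times SNHG3. These ratios are unlike, since all 206 bases of SNORA73A are also SNHG3 exon and the SNHG3 level holds part of its pairs. SCARNA7 shares no exon bases with KPNA4, but its counts were not whole, at 12413.5 in ETOH replicate 1.

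Of the 21 genes for H/ACA particle assembly, Cajal bodies, small RNA processing and pseudouridylation, 1 was higher and 0 were lower, where 1.02% and 2.38% of all genes were. The riser was DKC1, given above. The other 3 core proteins of the particle did not pass, with NHP2 at 0.62 ± 0.31, GAR1 at 0.24 ± 0.07 and NOP10 at -0.08 ± 0.14. The fold change was above 0 in 19 of the 21, where 49.9% of all tested genes were above 0, and the list's median was 0.21. PUS1, a pseudouridine synthase that works without a guide RNA, was at 0.56 ± 0.13 (edgeR adjusted p = 0.069). TERC, the telomerase RNA, which ends in an H/ACA domain, stood at 3.79 ± 1.59 CPM in ETOH and 4.96 ± 1.39 CPM in Tet (SD, n = 3).

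Several members cannot be told from copies. At 4 places (SCARNA4, SNORA16A, SNORA17B and SNORA50A) 2 identifiers cover the same locus and hold near-equal counts, so that the 169 identifiers stand for 165 loci, and 18 members have a copy elsewhere of at least 95% identity. Counts were whole in every library for 37 members, whose median log2 fold change was -0.02 with 0 called, and not whole for 132. SNORA84 also overlaps the microRNA gene MIR3651, SCARNA10 overlaps an annotated gene known by its identifier alone (ENSG00000276232), and SCARNA13 lies opposite exon bases of GLRX5, so that their values may hold pairs of those genes.

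At the minimum itself, SNORA24B (11, 9 and 14 counts in ETOH, 3, 10 and 2 in Tet), SNORA36C (13, 8 and 5, then 6, 11 and 10), SCARNA14 (10, 9 and 12, then 6, 11 and 9) and SNORA63 on ENSG00000252448 (17, 10 and 10, then 6, 13 and 8) were just inside. SNORA30B (6, 8 and 8, then 14, 14 and 6), SNORA63C (5, 0.5 and 5.5, then 5.5, 11.5 and 10.5) and SNORA38 (10, 1 and 5, then 4, 11.5 and 5) were just outside. Of the 70 identifiers left out, 31 had a count of 0 in every library. No member passed only through the libraries of a single group.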

How the data were processed

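Total RNA of SK-N-AS cells was measured in 3 ETOH and 3 Tet libraries, grouped by the labels. The authors deposited estimated counts per gene, read pairs on exons counted without normalization. Per the file headers, featureCounts 1.6.4 counted unique STAR alignments, split a pair over all genes it touched, and used no strand option, so that genes on opposite strands mix. The labels name featureCounts 1.5.1, STAR 2.7.1a and GRCh38, and the methods options for strand and for multiple alignments, which the headers do not have. All 92 spike-in sequences were at 0. Of 60651 identifiers, 99.65% were named from GENCODE 44.

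Rounded counts entered edgeR 4.0.16 (R 4.3.3) for 29086 genes that reached 10 counts in 3 or more libraries, with TMM, the quasi-likelihood test, group as sole term, Benjamini-Hochberg adjustment over these genes and a threshold of 0.05. The standard error is the log2 fold change divided by the square root of F, and intervals cover 95%. CPM use deposited counts. A host is the same-strand gene that encloses the member, the longest by exon length. Replicates are separate samples in the labels, and p-values measure the spread between them. Replicates differed by more than sampling noise (chi-square per gene 12.1 to 145.6), with a biological coefficient of variation of 0.153. On simulated data for this comparison (28603 genes, 200 changed 2-fold) edgeR recovered 81.5% and called 13 unchanged genes. The changed genes were drawn from those with a mean above 1 CPM, so the recovered share does not cover the 88 members under 1 CPM. Noise was drawn for each gene independently. The share therefore does not cover members that shift together between libraries either, as the most abundant ones did. At 10 counts the counting error is large.

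Named members were those past the threshold, the 10 with the highest level, up to 5 rises and 5 falls with at least 1 CPM and no overlap, and a set fixed by role. Members with hosts past the threshold and those called without Tet replicate 3 were added after their values were seen. The members, lists and rules were chosen with earlier results of these data known. Alternatives were library size only, upper-quartile factors, TMM over genes of at most 300 bases, DESeq2 1.42.0, other count filters, the replicate block, leaving out each library, other thresholds, and only members with whole counts or with a single identifier. The test of the adrenergic markers is not reported here.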

Additional observations from a re-analysis of the deposited data

How the results depend on the processing

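With every alternative that keeps all 6 libraries, edgeR or DESeq2 called 0 members higher and 0 lower at an adjusted p under 0.05. The reported fit also called 0 under 0.01 and under 0.1, but the smallest adjusted p of a member was 0.057 with DESeq2, 0.093 with at least 50 counts in every library (edgeR) and 0.095 with the replicate block (edgeR). The replicates share only a number, with correlations of same-numbered deviations of 0.216, -0.019 and 0.074, and with the replicate block 0 members were called in each direction, with a median log2 fold change of 0.01, beside 265 genes higher and 575 lower. Leaving out single libraries gave 0 to 1 members higher and 0 to 1 lower, the calls made without Tet replicate 3, and 18 to 1060 genes higher and 72 to 1279 lower over all genes. Both lowest counts were without ETOH replicate 2 and both highest without Tet replicate 3. Over all genes, higher and lower calls were 137 and 450 with TMM over genes of at most 300 bases, 904 and 1199 with DESeq2, 470 higher with no count filter, 36 and 145 at adjusted p under 0.01, and 706 and 1242 under 0.1, against 298 and 692. The cause of the shifts between tools was not tested. The members' median ranged from -0.02 to 0.07. Fold changes near 0 turned sign: SNORA73A was at -0.043 with library size only, -0.021 with upper-quartile factors, -0.00062 with at least 50 counts in every library and -0.10 with the replicate block. SCARNA9 was at -0.0075 with library size only, SNORA73B at 0.034 with TMM over short genes, and SNORA7A at 0.050, 0.012, 0.012 and 0.0083 with TMM over short genes, DESeq2, no count filter and the replicate block. Leaving out single libraries, SNORA73A ran from -0.46 to 0.31, SNORA73B from -0.42 to 0.22, SCARNA7 from -0.20 to 0.30, SCARNA21 from -0.14 to 0.25, SCARNA12 from -0.33 to 0.15, SNORA49 from -0.56 to 0.20, SNORA24 from -0.046 to 0.13, SCARNA2 from -0.31 to 0.60, SCARNA9 from -0.24 to 0.18, SNORA7B from -0.32 to 0.036 and SNORA7A from -0.066 to 0.12. The other members named by the rules kept their direction in all alternatives run. For the members added afterwards, the direction over all alternatives is not given here. SNORA80B ran from -0.65 to -0.47 and SNORA22 from 0.37 to 0.64. SCARNA10 ran from -0.38 to -0.0026, SCARNA13 from -0.52 to -0.0049, SNORA74D from -0.31 to -0.023 and SNORA57 from -0.64 to -0.12, each lowest without Tet replicate 3 and nearest 0 without Tet replicate 2. Depth limits the members under 1 CPM most.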
